A study of Mus musculus with 24 samples.

Results

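The genes described here are 2 neurotrophins, Bdnf and Ntf3, 3 receptors of the family, Ngfr, Ntrk2 and Ntrk3, the sorting receptor Sort1, and Vgf, a secreted neuronal product that BDNF induces. They are the 7 rows of these names in the expression tables, out of 25135 genes listed. The members were chosen by name, not by their values. RNA was sequenced from cortical nuclei of the Emx1 lineage, sorted by a SUN1-GFP tag on the nuclear envelope. WT mice carried unfloxed Kdm6b alleles and Kdm6b-cKO mice carried floxed Kdm6b alleles, and in both genotypes Emx1-Cre and the SUN1-GFP reporter were present on a C57BL/6 background. Nuclei were taken at postnatal day 1 (P1) and at P30, with 6 libraries of each genotype at each age, 24 in all. Emx1-Cre is active in progenitors of the dorsal telencephalon, so the sort is meant to hold nuclei of glutamatergic neurons, astrocytes and oligodendrocyte lineage cells together, and the Cre acts on floxed Kdm6b in all of them. Because the samples are mixtures, fewer nuclei of a type and less RNA per nucleus cannot be told apart.

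Neurotrophins are made as precursors, cleaved by proprotein convertases and released, and they promote the survival, growth and synaptic maturation of neurons. The mature forms bind Trk receptor tyrosine kinases: BDNF binds TrkB (Ntrk2) and neurotrophin-3 binds TrkC (Ntrk3), while p75NTR (Ngfr) binds all neurotrophins and, together with sortilin (Sort1), the precursors. KDM6B is a histone demethylase that removes the repressive mark H3K27me3. The question put to these genes is whether their RNA levels differ between WT and Kdm6b-cKO nuclei at either age, and how they stand at P1 and at P30.

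Levels are FPKM, fragments per kilobase of transcript scaled to the mapped fragments of a library, as the authors deposited them, and they are per length, so that levels of different genes can be set side by side. Depth, read from the height of 1-read steps in low values, was 803000 to 3910000 reads per WT library and 188000 to 2860000 per Kdm6b-cKO library at P1, and 5120000 to 8320000 and 1940000 to 8050000 at P30. Libraries are numbered 0 to 5 within a group. At P1, WT libraries 2 to 5 and Kdm6b-cKO library 5 had 397 to 794 of 1128 olfactory receptor genes above 0, and the other 7 libraries had 2 to 22. Kdm6b-cKO libraries 0 and 1 at P1 held the 45S ribosomal RNA precursor at over 1000 FPKM, and at P30 WT library 0 and Kdm6b-cKO libraries 0, 1 and 5 held it below 1000 FPKM and the other 8 above. These 2 splits are called batches here, since they separate libraries within a genotype, but the labels name no batch. Kdm6b itself, counted over the whole gene, averaged 37.8 ± 11.3 FPKM in WT and 29.0 ± 9.67 in Kdm6b-cKO at P1 and 21.6 ± 4.08 and 23.4 ± 4.36 at P30 (SD, n = 6). It did not pass the test at either age, so it does not check the labels, and the floxed exons were not analysed separately. Glutamatergic neuron markers were present in every library, with at least 7 of 8 above 0. Markers of cells outside the lineage were also present at P1, where 10 GABAergic neuron markers summed to 456 to 884 FPKM in WT and 593 to 1530 in Kdm6b-cKO libraries, 8 endothelial and mural markers to 131 to 253 and 67.6 to 246, and 8 microglial markers to 57.4 to 117 and 26.6 to 118. The labels do not say whether libraries are from separate animals, so p-values measure the spread between libraries, which may be technical.

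**Figure D1:**
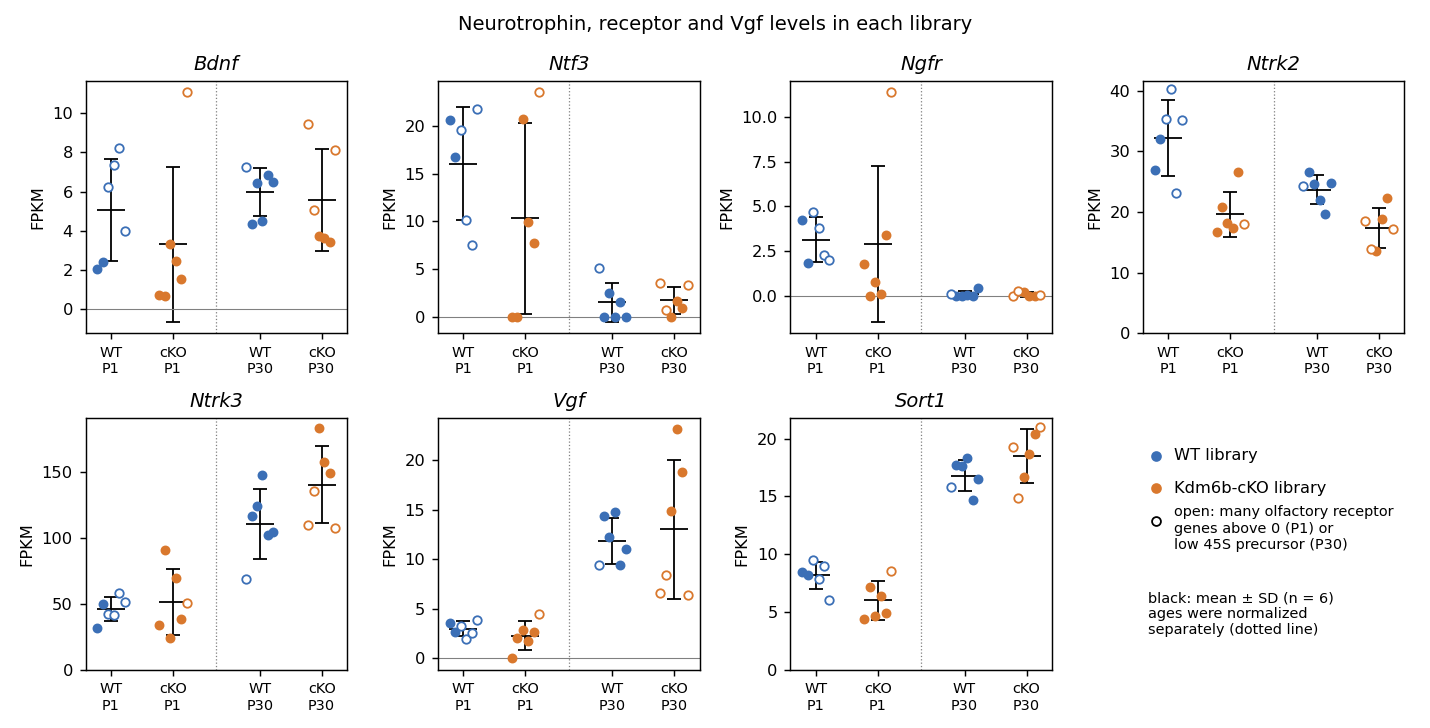
FPKM of the 7 genes in each of the 24 libraries (points), with the mean and SD of each group of 6 in black; open points mark libraries of the smaller or olfactory-receptor batch of each age, and the dotted line separates the ages, which were normalized separately. Ntrk2 is the gene whose Kdm6b-cKO points sit low at both ages, with 5 of 6 below every WT library; Ntf3 and Ngfr are near 0 at P30 in both genotypes.

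Ntrk2 encodes TrkB, the receptor of BDNF, and gene-level values combine its full-length and truncated forms. The gene lies on the plus strand at chr13:58907957-59235331 in mm9. Its RNA was at 23.1 FPKM in the lowest, 33.7 in the median and 40.3 in the highest WT library at P1. In Kdm6b-cKO libraries of that age it was 16.7, 18.1 and 26.6. The Kdm6b-cKO values thus lay in the lower part of the range, and 5 of 6 were below the lowest WT library, with 1 overlapping. The mean was 1.63-fold lower in Kdm6b-cKO (log2 fold change -0.71, SE 0.22, 95% interval -1.17 to -0.24; exact two-sided permutation p = 0.00433). Across all 16250 genes tested by limma the adjusted p was 0.195, so Ntrk2 was not called, and neither was any other member. At P1 0% of all genes were called. One member, Ntrk2, had an unadjusted limma p under 0.05 and was lower, as did 7.77% of all genes.

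At P30 Ntrk2 was again lower in Kdm6b-cKO nuclei. WT libraries spanned 19.7 to 26.6 FPKM with a median of 24.5, and Kdm6b-cKO libraries spanned 13.6 to 22.3 with a median of 17.8. Again 5 of 6 Kdm6b-cKO libraries were below every WT library and 6 of 6 were below the WT median. The difference was 1.37-fold (log2 fold change -0.46, SE 0.15, 95% interval -0.78 to -0.13; exact two-sided permutation p = 0.00649), and the limma adjusted p over 13289 genes was 0.232. No member was called at P30 either, where 0.278% of genes were called, and Ntrk2 was again the only member with an unadjusted p under 0.05, and 7.37% of all genes had one in that direction. Of the 12644 genes tested at both ages, 123 (0.973%) had an unadjusted p under 0.05 and were lower in Kdm6b-cKO at both, and Ntrk2 was the 1 of these among the 6 members tested at both.

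The Ntrk2 difference had the same direction within every batch. At P1, in the 7 libraries with few olfactory receptor genes, WT libraries were at 27.0 and 32.1 FPKM and the 5 Kdm6b-cKO libraries at 16.7 to 26.6 (log2 difference -0.58, exact permutation p = 0.0476, the smallest that 2 against 5 libraries allow). In the other 5 libraries the single Kdm6b-cKO value, 18.0, was below the 4 WT values of 23.1 to 40.3. At P30 the within-batch log2 differences were -0.39 among libraries high in 45S precursor (5 WT and 3 Kdm6b-cKO, exact permutation p = 0.0714) and -0.57 among libraries low in it (1 WT and 3 Kdm6b-cKO). Under limma's own library weights the P30 difference passed by adjusted p alone, with a log2 fold change of -0.47 and an adjusted p of 0.0231. That setting called 530 of 13289 genes, against 37 in the main fit. Over all alternatives at P30 the adjusted p ranged from 0.0231 to 0.394. The genotype effect did not differ between the ages by a test of the difference itself (0.25 on the log2 scale, SE 0.25, limma adjusted p = 0.691).

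Markers of glia of the same lineage moved with these groups. The summed level of 6 oligodendrocyte precursor markers was 32.8 to 52.5 FPKM in WT and 18.8 to 33.7 in Kdm6b-cKO libraries at P1, and 6 of 6 fitted changes were below 0. That of 8 mature oligodendrocyte markers was 260 to 511 FPKM in WT and 136 to 199 in Kdm6b-cKO libraries at P30, with no overlap, and 8 of 8 were below 0. None of these 8 markers was at 0 in any P30 library. The sum over 10 astrocyte markers overlapped, at 199 to 300 and 116 to 356 FPKM at P1 and at 108 to 173 and 102 to 164 at P30. Of these markers 8 of 10 had a fitted change below 0 at each age, with a median of -0.66 at P1 (4 lower at an unadjusted p under 0.05) and -0.094 at P30 (2 lower). Over all genes 63.2% were below 0 at P1 and 54.8% at P30, with medians of -0.25 and -0.047. At an unadjusted p under 0.05, 7.77% and 7.37% of all genes were lower. At P30 the markers of GABAergic neurons stood the other way, with 7 of 7 tested above 0 and a median of 1.58, and so did 4 of 5 microglial markers. None of these passed, the smallest limma adjusted p being 0.202 for GABAergic and 0.144 for microglial markers. The part of these cells in the Ntrk2 and Ntrk3 differences was not tested.

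Of the members only Ntrk2 was lower at both ages at an unadjusted limma p under 0.05, and it was called at neither. H3K27me3, the mark that KDM6B removes, is found mainly at CpG-rich promoters. The window around the annotated Ntrk2 start is therefore shown. It is chr13:58806319-58806618 on the plus strand of GRCm38.p6, from RefSeq, with 250 bases before and 50 after the start, and its CpG dinucleotides are in capitals.
Ntrk2 promoter: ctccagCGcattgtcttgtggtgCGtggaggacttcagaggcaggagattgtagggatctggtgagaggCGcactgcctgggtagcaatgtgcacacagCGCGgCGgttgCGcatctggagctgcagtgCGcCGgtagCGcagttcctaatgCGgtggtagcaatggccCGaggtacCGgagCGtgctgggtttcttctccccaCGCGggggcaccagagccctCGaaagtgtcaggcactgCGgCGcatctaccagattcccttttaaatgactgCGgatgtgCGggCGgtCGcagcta
It holds 23 CpG dinucleotides, more than 78.5% of the 32851 windows of this kind, whose median is 7. The only other member window with as many is that of Ngfr, also with 23, and windows were found for 4 of the 7 members (Bdnf, Ntf3, Ngfr and Ntrk2). No chromatin data were analysed here, so the count describes the sequence only.

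Ntrk3 encodes TrkC, the receptor of neurotrophin-3, and had the highest mean level of the members in each of the 4 groups. At P1 it ranged from 31.9 to 58.0 FPKM in WT (median 46.2) and from 24.2 to 90.7 in Kdm6b-cKO (median 44.6). The genotypes overlapped, with 1 Kdm6b-cKO library below the WT range and 2 above it, and a log2 fold change of 0.049 (SE 0.30, limma adjusted p = 0.953) that turned negative under quantile normalization (-0.14). At P30 WT libraries were at 68.6 to 148 FPKM (median 110) and Kdm6b-cKO libraries at 107 to 183 (median 142). Here 3 of 6 Kdm6b-cKO libraries were above every WT library, and the log2 fold change of 0.36 (SE 0.20) did not pass (limma adjusted p = 0.503, exact permutation p = 0.0996). With the 45S batch as a term it was 0.55, with a limma adjusted p of 0.0264. That setting called 550 of 13289 genes, against 37 in the main fit. Over all alternatives the adjusted p of Ntrk3 ranged from 0.0264 to 0.709. Within both 45S batches Ntrk3 was higher in Kdm6b-cKO, by 0.46 (exact permutation p = 0.0357) and 0.77 on the log2 scale.

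Because Ntrk2 and Ntrk3 come from the same library, their ratio does not depend on how libraries are scaled. The ratio was chosen after the values were seen, so it is given as a description, and tests run on the same values are not reported here. Ntrk3 exceeded Ntrk2 in all 24 libraries. At P1 the ratio had a median of 1.33 in WT (1.02 to 2.51) and 2.43 in Kdm6b-cKO (1.34 to 4.35). At P30 the medians were 4.71 (2.82 to 6.69) and 7.52 (5.96 to 13.5). The mean log2 ratio was higher in Kdm6b-cKO by 0.76 at P1 and by 0.81 at P30, and the ranges overlapped at both ages.

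**Figure D2:**
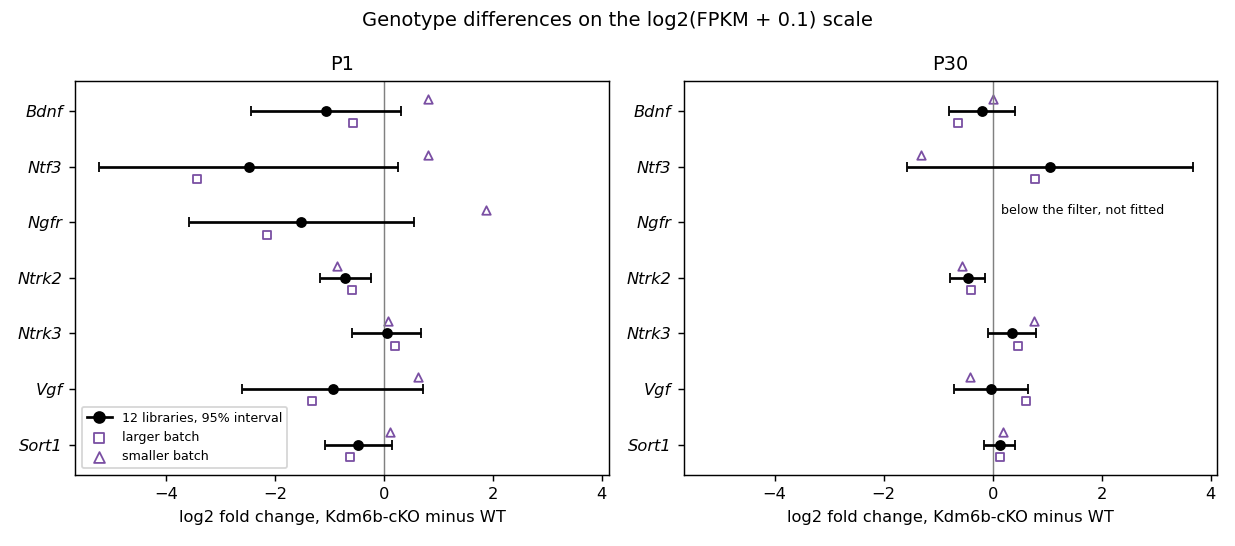
Kdm6b-cKO minus WT difference of each gene on the log2(FPKM + 0.1) scale at P1 and P30: black points are limma estimates over 12 libraries with 95% intervals, and open purple symbols are the differences within the larger (squares) and the smaller (triangles) batch of libraries. The Ntrk2 intervals, -1.17 to -0.24 and -0.78 to -0.13, do not reach 0; at P1 the symbols of the smaller batch lie to the right of 0 for every gene but Ntrk2, and that batch holds a single Kdm6b-cKO library, of 188000 reads.

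Bdnf, the ligand of TrkB, lies at chr2:109514857-109567204 on the plus strand of mm9 and has 10 annotated transcripts from several promoters, which the gene-level value sums. At P1 the lowest, median and highest WT libraries were at 2.04, 5.12 and 8.22 FPKM. The Kdm6b-cKO libraries were at 0.674, 2.00 and 11.1. The groups overlapped, since Kdm6b-cKO library 5 was the highest of all 12 and the other 5 lay at or below 3.33 FPKM. The log2 fold change of -1.06 (SE 0.65) did not pass (limma adjusted p = 0.468, exact permutation p = 0.152). All 5 libraries with many olfactory receptor genes, 4 WT and 1 Kdm6b-cKO, were at 4.00 to 11.1 FPKM, and the other 7 at 0.674 to 3.33, with no overlap. Within these batches the log2 difference was 0.82 and -0.56, so the direction was not the same in both. In the 2 shallow Kdm6b-cKO libraries with high 45S precursor, Bdnf rested on few reads, 1 read being worth 0.717 to 0.820 FPKM in library 0 and 0.295 to 0.337 in library 1, and without these libraries the log2 fold change was -0.35.

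At P30 Bdnf was between 4.33 and 7.25 FPKM in WT (median 6.45) and between 3.41 and 9.47 in Kdm6b-cKO (median 4.39). The genotypes overlapped on both sides, and the log2 fold change was -0.19 (SE 0.28, limma adjusted p = 0.824). The Kdm6b-cKO libraries divided by the 45S split: the 3 low in 45S precursor were at 5.05, 8.11 and 9.47 FPKM and the 3 high in it at 3.41, 3.61 and 3.72. Among the 8 libraries high in 45S precursor Bdnf was lower in Kdm6b-cKO, by 0.63 on the log2 scale (exact permutation p = 0.0357), and the 3 Kdm6b-cKO libraries there were also shallower (1940000 to 2660000 reads) than the 5 WT libraries (5120000 to 8320000). Among those low in it the difference was 0.0083.

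One of the 7 annotated Bdnf windows is shown because it carries the element through which neuronal activity is known to act on Bdnf, a site of the CREB type. It is chr2:109692186-109692485 on the plus strand of GRCm38.p6, from RefSeq, with CACGTCA in capitals.
Bdnf promoter: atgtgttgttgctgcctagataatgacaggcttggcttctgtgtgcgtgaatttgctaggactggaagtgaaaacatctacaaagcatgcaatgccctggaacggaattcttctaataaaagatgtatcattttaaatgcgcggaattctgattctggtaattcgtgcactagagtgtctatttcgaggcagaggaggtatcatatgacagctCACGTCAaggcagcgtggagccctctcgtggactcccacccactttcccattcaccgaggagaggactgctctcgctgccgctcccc
The match begins 37 bases before the annotated start. On either strand (CACGTCA or TGACGTG) it is found in 2.01% of the 32851 windows, and in this 1 of the 11 windows of the members. The FPKM values do not say which of the promoters was used.

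Ntf3 encodes neurotrophin-3 and lies at chr6:126051431-126116762 on the minus strand of mm9. At P1 WT libraries were at 7.53, 18.2 and 21.8 FPKM (lowest, median, highest). Kdm6b-cKO libraries ranged more widely, with 0 in libraries 0 and 1 and 7.74, 9.91, 20.7 and 23.5 in the others. Apart from the 2 libraries at 0, the genotypes spanned a like range. Among libraries with few olfactory receptor genes, WT libraries were at 16.8 and 20.7 FPKM. Kdm6b-cKO libraries 2, 3 and 4, of the same batch, were at 20.7, 9.91 and 7.74. The highest Kdm6b-cKO value was of library 5, the shallowest, where a read was worth 4.33 to 4.76 FPKM. In library 0 a read was worth 2.37 to 2.61 FPKM, so that the limit of 3 reads was 7.12 to 7.83 FPKM, about the lowest level in the other libraries, and in library 1 it was 2.93 to 3.22 FPKM, below all of them. The log2 fold change of -2.48 (SE 1.28, limma adjusted p = 0.392) rests on these libraries and on the pseudocount: it was -0.11 without them, and with all libraries it was -1.40 with a pseudocount of 1 and -3.59 with 0.01. These are also the P1 libraries with the highest 45S precursor, at 3423 and 3239 FPKM against 28.7 to 899 in the other 10. The part of the 45S precursor level in the Ntf3 values was not tested.

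At P30 Ntf3 was low in both genotypes. WT libraries were at 0 in 3 of 6, with 5.14 FPKM in the highest, and Kdm6b-cKO libraries at 0 in 1 of 6, with 3.53 in the highest. The log2 fold change of 1.06 (SE 1.22) did not pass (limma adjusted p = 0.771) and was -1.31 in the libraries low in 45S precursor.

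The 2 annotated Ntf3 starts are close together, and the window with more CpG dinucleotides is shown beside that of Bdnf because these ligands stand in opposite order at the 2 ages. It is chr6:126164911-126165210 on the minus strand of GRCm38.p6, from RefSeq, written 5′ to 3′ with CpG dinucleotides in capitals.
Ntf3 promoter: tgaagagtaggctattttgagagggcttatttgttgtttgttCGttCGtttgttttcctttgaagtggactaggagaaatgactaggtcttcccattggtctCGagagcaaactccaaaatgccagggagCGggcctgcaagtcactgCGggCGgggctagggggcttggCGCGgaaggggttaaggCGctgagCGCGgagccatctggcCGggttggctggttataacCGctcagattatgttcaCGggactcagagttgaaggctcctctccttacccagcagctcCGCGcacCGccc
It holds 17 CpG dinucleotides, more than 68.6% of all windows, and the other Ntf3 window holds 12. The 7 Bdnf windows hold from 2 to 13.

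The order of the ligands within a library turned with age. At P1 Ntf3 was above Bdnf in 5 of 6 WT libraries and 4 of 6 Kdm6b-cKO libraries. At P30 Bdnf was above Ntf3 in all 12. Where Ntf3 was above 0, the ratio of Bdnf to Ntf3 was 0.0984 to 1.09 in WT and 0.160 to 0.469 in Kdm6b-cKO at P1, and 1.41 to 4.62 and 2.14 to 7.73 at P30. This order was noticed in the values, so it is given as a description, and tests run on the same values are not reported here. The 2 Kdm6b-cKO libraries without Ntf3 at P1 are the ones in which Bdnf was above it.

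Ngfr encodes p75NTR and had few reads: 121 over the 6 WT libraries at P1 and 47 over the 6 Kdm6b-cKO libraries, by the 1-read step of its single annotated transcript. At P1 WT libraries were at 1.83, 3.03 and 4.71 FPKM (lowest, median, highest) and Kdm6b-cKO libraries at 0, 1.30 and 11.4. The highest Kdm6b-cKO value was of library 5, the shallowest, and stands for 7 reads. The 4 lowest of the 12 libraries were Kdm6b-cKO, but the groups overlapped, and the log2 fold change of -1.52 (SE 0.97) did not pass (limma adjusted p = 0.488). At P30 Ngfr had 12 reads over the WT libraries and 10 over the Kdm6b-cKO libraries, with 3 of 6 at 0 in each, and it did not reach the mean of 1 FPKM needed for a test.

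Sort1 encodes sortilin, which sorts pro-neurotrophins inside the cell and is the partner of p75NTR in binding them at the surface. At P1 WT libraries were at 6.02, 8.32 and 9.52 FPKM (lowest, median, highest), and Kdm6b-cKO libraries at 4.37, 5.64 and 8.58. Of the Kdm6b-cKO libraries 3 were below every WT library. The log2 fold change was -0.47 (SE 0.29) with an exact permutation p of 0.0368 and a limma adjusted p of 0.477, which did not pass. It was -0.62 among libraries with few olfactory receptor genes (exact permutation p = 0.0476, the smallest possible) and 0.11 among those with many. At P30 the order was not kept: 14.7 to 18.3 FPKM in WT against 14.8 to 21.0 in Kdm6b-cKO, with 4 of 6 Kdm6b-cKO libraries above every WT library (log2 fold change 0.13, SE 0.13, limma adjusted p = 0.733). The difference between the ages in genotype effect, 0.60 on the log2 scale (SE 0.26), had an unadjusted p of 0.0319 and did not pass over all genes (limma adjusted p = 0.333). Of all genes 13.2% had an unadjusted p under 0.05 for this difference and 0.00791% passed; none of the 6 members tested did.

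Vgf encodes a secreted granin-like precursor of neuropeptides, and its gene spans only chr5:137506165-137509221 in mm9. At P1 it rested on 84 reads over the WT libraries and 54 over the Kdm6b-cKO libraries, at 1.94 to 3.88 FPKM (median 2.96) and 0 to 4.42 FPKM (median 2.34). The groups overlapped and the log2 fold change of -0.94 (SE 0.78) did not pass (limma adjusted p = 0.584). It was -0.059 without the 2 Kdm6b-cKO libraries high in 45S precursor. At P30 Vgf rested on 77 to 203 reads a library, at 9.44 to 14.7 FPKM in WT (median 11.6) and 6.38 to 23.1 in Kdm6b-cKO (median 11.6). The Kdm6b-cKO libraries thus lay on both sides of the WT range, 3 below it and 3 above, and the log2 fold change was -0.026 (SE 0.32, limma adjusted p = 0.98). The 3 below, at 6.38, 6.56 and 8.38 FPKM, were those low in 45S precursor, and the 3 above, at 14.8, 18.8 and 23.1, were those high in it. Within the batches the log2 difference was -0.42 and 0.61 (exact permutation p = 0.25 and 0.0357, the first being the smallest that 1 against 3 allows). Bdnf and Vgf therefore stood in opposite order across the Kdm6b-cKO libraries of P30: each library with less Bdnf than the WT minimum had more Vgf than the WT maximum. The summed level of 8 glutamatergic neuron markers divided these libraries in the same way. It was 173, 166 and 190 FPKM in Kdm6b-cKO libraries 0, 1 and 5, low in 45S precursor. In Kdm6b-cKO libraries 2, 3 and 4, high in it, the sum was 329, 429 and 441. The part of the ribosomal precursor level, of depth and of neuronal content in the order of Bdnf and Vgf was not tested.

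**Figure D3:**
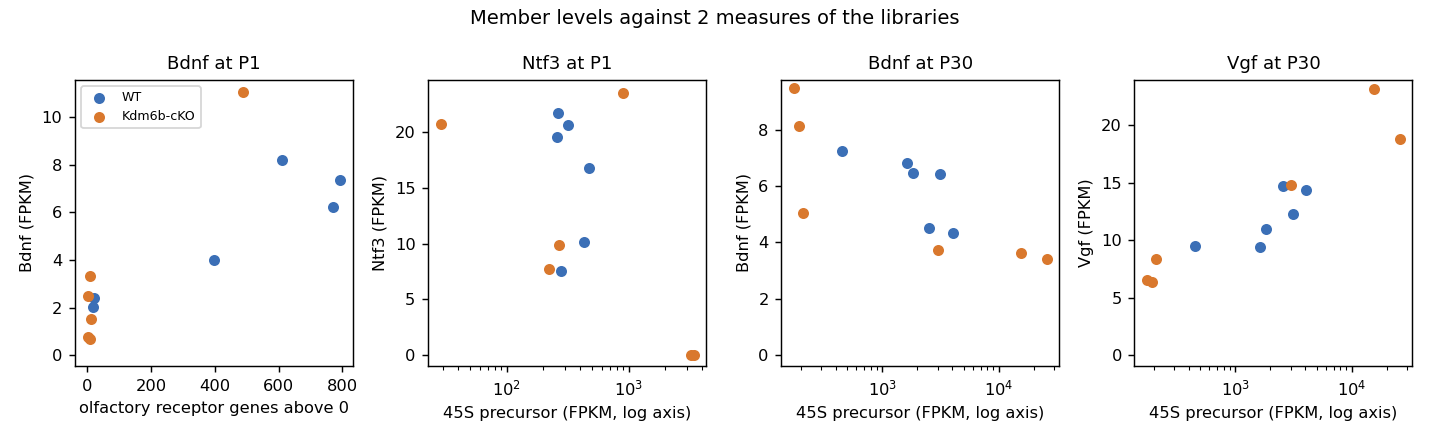
Levels in FPKM of Bdnf and Ntf3 at P1 and of Bdnf and Vgf at P30 (vertical axes) against the number of olfactory receptor genes above 0 or the 45S precursor level (FPKM, log axis), one point per library. Bdnf at P1 is at 4.00 FPKM or more in the 5 libraries with 397 receptor genes or more, Ntf3 at P1 is at 0 in the 2 libraries with the highest 45S precursor (3423 and 3239 FPKM), and at P30 the Kdm6b-cKO libraries with high 45S precursor have the least Bdnf and the most Vgf.

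Within a group, levels per length could be ordered by paired differences over the 6 libraries, for which an exact two-sided sign-flip permutation test allows no p under 0.03125. In WT at P1 the order was Ntrk3, Ntrk2, Ntf3, Sort1, Bdnf, Ngfr and Vgf, with means from 45.8 ± 9.17 down to 2.98 ± 0.729 FPKM (SD, n = 6). By this exact test Ntf3 and Sort1 (p = 0.0625), Bdnf and Ngfr (p = 0.219), and Ngfr and Vgf (p = 0.906) did not differ beyond their spread, and the other neighbours differed in 6 of 6 libraries. In WT at P30 the order was Ntrk3, Ntrk2, Sort1, Vgf, Bdnf, Ntf3 and Ngfr, from 111 ± 26.3 down to 0.103 ± 0.171 FPKM, and all neighbours but Ntf3 and Ngfr (exact p = 0.25) differed in 6 of 6 libraries. In Kdm6b-cKO at P30 Sort1 came before Ntrk2, at 18.5 ± 2.33 and 17.4 ± 3.27 FPKM, a pair that did not differ beyond its spread (exact p = 0.25), and neither did Ntrk2 and Vgf (p = 0.188), Vgf and Bdnf (p = 0.156) or Ntf3 and Ngfr (p = 0.0938). At P1 in Kdm6b-cKO the order of the means was that of WT, and Ntrk3 over Ntrk2 was the only pair of neighbours with an exact p of 0.03125.

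Since the ages were normalized separately, they were compared by each gene's rank among all genes of its library, as a percentile. Age and table cannot be told apart in this comparison. Vgf rose the most of the members, from 50.5 ± 9.72 to 77.5 ± 6.05 (SD, n = 12), a difference of 27.0 percentile points (SE 3.25, limma adjusted p = 2.01e-07). Sort1 rose by 16.6 points (SE 1.10, adjusted p = 1.33e-11) and Ntrk3 by 7.06 points, to 98.6 ± 0.502 (SE 1.10, adjusted p = 8.01e-06). For these 3 genes no P30 library overlapped a P1 library, which was so for 8.93% of all genes in the upward direction. Of all genes 60.4% passed this test, 31% higher and 29.4% lower at P30, and of the 6 members that reached the filter at both ages 4 passed higher, 1 lower and 1 did not pass, so that passing alone says little of a member.

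Bdnf rose by 8.37 points (SE 2.46, limma adjusted p = 0.00535), with overlap between the ages, and in WT alone (6.57 points, limma adjusted p = 0.0541) or Kdm6b-cKO alone (10.2 points, 0.073) it did not pass. Ntf3 dropped by 26.1 points (SE 8.12, adjusted p = 0.00799). In WT it went from 78.4 ± 7.03 to 38.1 ± 21.9 with no overlap (exact permutation p = 0.00216), and in Kdm6b-cKO from 60.1 ± 28.7 to 48.2 ± 14.6 (p = 0.372), where 2 P1 libraries were already at 0. Ngfr stood at 51.6 ± 12.7 at P1 and 28.6 ± 11.5 at P30, which is given with no test because it entered the fit only through its P1 level. Ntrk2 kept its place, at 85.5 ± 4.15 and 85.6 ± 2.87, a difference of 0.033 points with a 95% interval from -2.22 to 2.29 (adjusted p = 0.981). Cell type markers moved with age as well: 7 of 8 mature oligodendrocyte markers rose (median 38.5 points), while 7 of 8 endothelial and mural markers (median -29.0), 7 of 10 GABAergic markers (-14.3) and 4 of 8 microglial markers (-11.9) dropped. Many of these markers reached the filter at only 1 age. At P1 it was reached by 6 of the 8 mature oligodendrocyte markers. At P30 it was reached by 3 of the 8 endothelial and mural, 7 of the 10 GABAergic and 5 of the 8 microglial markers. The counts and medians are therefore given as a description, and the part of these cell types in the members' changes of rank was not tested.

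**Figure D4:**
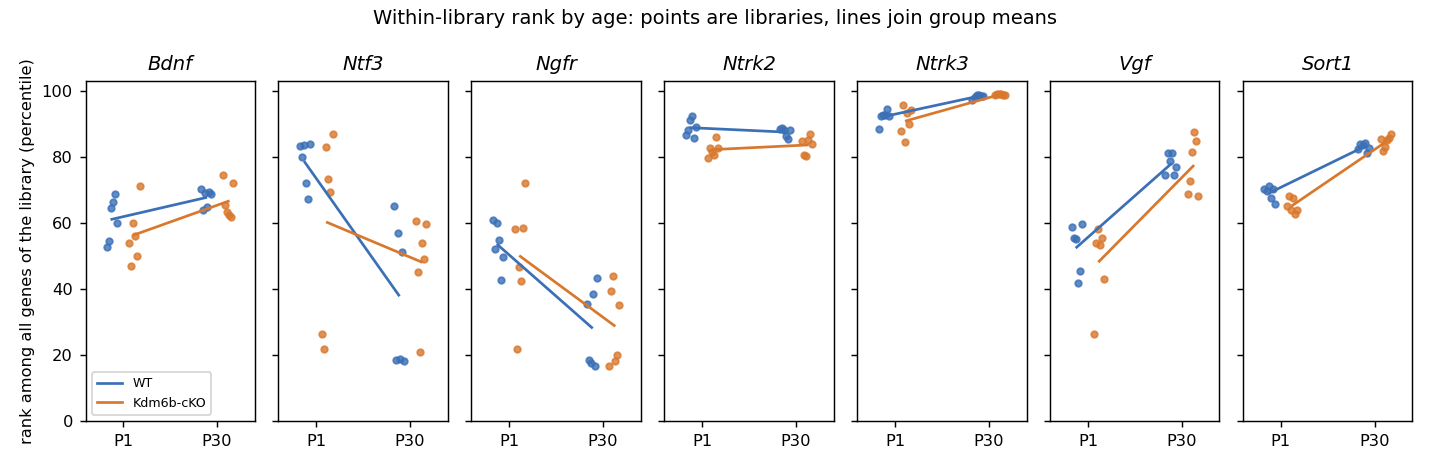
Percentile rank of the 7 genes among all 25135 genes of each library (vertical axis) at P1 and P30, with a point per library and lines joining the means of WT (blue) and Kdm6b-cKO (orange). Ntrk3, Vgf and Sort1 are higher at P30 without overlap, Ntf3 and Ngfr are lower, and Ntrk2 stays near 86 with Kdm6b-cKO below WT at both ages.

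The genes whose log2 levels were most like each member's over the 12 libraries of an age are given by Pearson's r, as a description of libraries that share depth and batch. Nearest to Ntrk2 were Tom1l2 (r = 0.937) and Clasp1 (0.915) at P1, and Ppp2r2cos (0.882) and Lingo1 (0.88), a co-receptor in the Nogo receptor complex with p75NTR, at P30. For Ntrk3 they were Echdc2 (0.885) and Yipf2 (0.877) at P1 and Ggnbp2 (0.978) and Prcd (0.958) at P30. Bdnf was nearest to Gm6642 (0.943) and Tmem132b (0.921) at P1 and to Ube3a (0.951) and Zbtb11 (0.948) at P30. Ntf3 was nearest to Cldn10 (0.986) and Hspb6 (0.972) at P1 and to Mtmr6 (0.919) and F3 (0.884) at P30. Ngfr at P1 had Herc3 (0.93) and Slc22a23 (0.917). Vgf was nearest to Slc31a2 (0.987) and Bpnt1 (0.982) at P1, and at P30 Atp5d (0.968) was among the nearest. Sort1 was nearest to Pde10a (0.937) and Bri3bp (0.929) at P1 and to Rangrf (0.89) and Ahctf1 (0.885) at P30. No gene was nearest to the same member at both ages.

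No other ligand or receptor of the system was called between the genotypes. Of 12 other ligands and receptors 10 were tested at P1, and all 10 fitted log2 fold changes were below 0, as were 63.2% of all genes, with a median of -0.84 against -0.25 over all genes; 4 had an unadjusted limma p under 0.05, against 7.77% of all genes in that direction. Lingo1 was at 26.7 ± 3.50 FPKM in WT and 14.7 ± 5.31 in Kdm6b-cKO (SD, n = 6; log2 fold change -0.91, SE 0.25, limma adjusted p = 0.182). Rtn4r, the Nogo receptor, was at 8.04 ± 0.575 and 4.50 ± 1.84 FPKM, with no overlap, as 0.683% of all genes were in that direction (log2 fold change -0.94, adjusted p = 0.249). At P30, 5 of 7 tested were below 0, as were 54.8% of all genes, with a median of -0.11 against -0.047 over all genes. Sorcs1, a sortilin relative, was at 7.29 ± 1.08 FPKM in WT and 4.45 ± 0.544 in Kdm6b-cKO, again with no overlap, as were 1.05% of all genes (-0.70, SE 0.16, adjusted p = 0.096), and Lingo1 at 41.6 ± 6.69 and 30.1 ± 7.55 (-0.48, adjusted p = 0.278).

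Downstream of the Trk receptors, 36 adaptors and kinases were tested. At P1 28 fitted changes were below 0, as were 63.2% of all genes, and none was called. At an unadjusted p under 0.05 there were 5 lower, against 7.77% of all genes, and 2 higher. Mapk7, which encodes ERK5, a kinase that carries neurotrophin signals from axon to nucleus, was at 50.1 ± 19.7 FPKM in WT and 19.0 ± 5.26 in Kdm6b-cKO (log2 fold change -1.34, SE 0.30, limma adjusted p = 0.178). Plcg1, the phospholipase bound by activated Trk receptors, was at 14.4 ± 2.22 and 6.04 ± 2.45 FPKM without overlap, as 0.683% of all genes were in that direction (-1.31, SE 0.30, adjusted p = 0.178). At P30 Mapk7 was at 12.2 to 25.8 FPKM in WT and 7.27 to 10.2 in Kdm6b-cKO, with no overlap, as were 1.05% of all genes in that direction. It fell by 1.00 on the log2 scale (SE 0.18, limma adjusted p = 0.035), just short of the 2-fold needed for a call, and 0.369% of all genes passed by adjusted p alone. The adjusted p was between 0.0525 and 0.103 when any 1 library was left out. Akt1, which passes on survival signals, was at 16.6 ± 3.41 and 11.9 ± 2.46 FPKM (-0.47, adjusted p = 0.317). The medians of the list were -0.46 at P1 and -0.065 at P30, against -0.25 and -0.047 over all genes.

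Regulators of Bdnf transcription gave 14 genes tested at P1, and none was called. Of these 12 were below 0, as were 63.2% of all genes, with a median of -0.41 against -0.25 over all genes. Mef2c, which binds Bdnf control regions in active neurons, was at 115 to 170 FPKM in WT and 54.4 to 93.1 in Kdm6b-cKO (log2 fold change -1.01, SE 0.20, limma adjusted p = 0.16). Its groups did not overlap, as was so for 0.683% of all genes in that direction. Mef2d was at 13.7 ± 0.314 and 8.30 ± 2.37 FPKM at P1 (-0.77, adjusted p = 0.224) and at 30.1 ± 3.90 and 18.9 ± 5.39 at P30 (-0.71, adjusted p = 0.146). Creb1 at P30 was higher in Kdm6b-cKO, at 4.14 ± 0.788 against 3.05 ± 0.373 FPKM (0.42, adjusted p = 0.391). At P30 6 of the 13 tested were below 0, as were 54.8% of all genes, with a median of 0.040 against -0.047 over all genes.

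Among 16 granins, neuropeptides and activity-related products grouped with Vgf, 7 were below 0 at P1 and 9 at P30, and none was called. Over all genes 63.2% and 54.8% were below 0. Arc, an activity-induced synaptic protein, was at 3.08 ± 0.562 FPKM in WT and 1.27 ± 2.16 in Kdm6b-cKO at P1 (log2 fold change -2.81, SE 0.93, limma adjusted p = 0.211). Tac1, a tachykinin precursor, was at 26.8 ± 12.3 and 45.1 ± 12.3 FPKM at P1 (0.89, adjusted p = 0.277) and at 3.02 ± 3.83 and 5.62 ± 2.28 at P30 (1.84, adjusted p = 0.382). Cck was at 125 ± 18.6 and 90.9 ± 21.4 FPKM at P30 (-0.48, adjusted p = 0.306). The summed level of 10 GABAergic neuron markers, cells that should lie outside the Emx1 lineage and that express many neuropeptides, was 32.7 to 392 FPKM in WT and 145 to 320 in Kdm6b-cKO at P30, and its part was not tested.

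With age, the lists divided. Of the 10 other ligands and receptors tested by rank, 7 of which reached the filter at P30, 6 rose and 3 dropped. Rtn4r rose by 28.8 points, Sorl1 by 20.4, Sorcs3 by 19.7, Sorcs2 by 11.0 and Sorcs1 by 9.41, so that the 4 sortilin relatives listed moved in the same direction as Sort1. Among 36 Trk adaptors and kinases 10 rose and 14 dropped, with Shc2 rising by 25.5 points and Nras dropping by 19.3. Of 14 Bdnf regulators, 13 of which reached the filter at P30, 7 rose and 3 dropped. Npas4, an activity-induced factor, rose by 44.3 points, Crtc1, a CREB coactivator, by 16.4, and Mef2d by 13.9. Of the 16 genes grouped with Vgf, 7 rose and 6 dropped, Arc rising by 46.9 points and Nptx1 by 28.0, and Tac1 dropped by 28.4. Of 11 processing enzymes and release factors tested, 10 reached the filter at P1 and 9 at P30. Of the 11, 6 rose, among them the convertases Pcsk7 (by 11.1 points) and Pcsk2 (6.39), and Serpini1, an inhibitor of tissue plasminogen activator, dropped by 13.8. Each of these named genes had a limma adjusted p under 0.05, as did 60.4% of all genes.

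**Figure D5:**
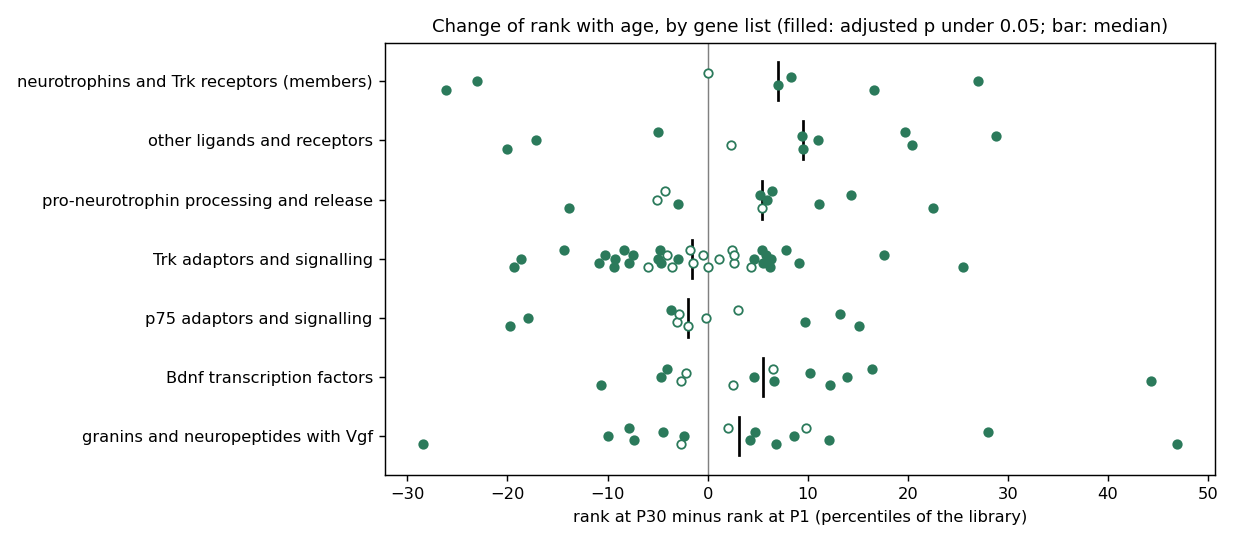
Change of within-library rank from P1 to P30, in percentile points, for each gene of the 7 lists (one point per gene; filled points have an adjusted p under 0.05, Ngfr among them, which entered only through P1; black bars are list medians). The median was 7.06 for the members, 9.49 for other ligands and receptors and -1.60 for Trk adaptors and signalling, against -0.36 over all genes.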

How the data were processed

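RNA was sequenced from sorted cortical nuclei in 24 libraries. Per the submitters' processing notes and the study's methods, reads were aligned to mm9 with HISAT2. The values are FPKM, which the authors deposited in 1 table for each age (the methods name the unit RPKM), scaled by Cuffdiff; tool versions and the annotation are not given in the sources used here. The authors' own Cuffdiff comparison, also deposited, was not used. Table columns carry the numbers 0 to 5 and the labels 1 to 6, so columns were mapped to groups only. Gene positions are of GENCODE M1 on mm9, and promoter windows of RefSeq on GRCm38.p6, which are not converted into each other.

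Genotypes were compared within an age with limma 3.58.1 in R 4.3.3 with an intensity trend and two-sided tests. The fits took log2(FPKM + 0.1) of the genes averaging 1 FPKM or more, and p was adjusted by Benjamini-Hochberg over all of them. Genes were called at an adjusted p below 0.05 with over 2-fold change. Fold changes are on this log scale: the offset understates those of genes low in all libraries, and libraries at 0 can make them larger than the ratio of the group means. The fit over both ages tested the difference of genotype effects, and percentile ranks within libraries were fitted for age. Single genes were also compared by exact permutation of libraries (Python 3.11.15, scipy 1.17.1). Depth was estimated from 1-read steps with fragments of 200 bases, and it covers counting only. The limma fits were tested on simulated data.

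The text names the 7 members, from each list the 2 genes with the smallest unadjusted p at each age, and for each member the 2 genes of highest correlation (mean of at least 5 FPKM). Some genes that this rule covers are not reported here. Genes named for age alone and the ratios were chosen after their values were seen. The members and lists were chosen with earlier results of these data known. Alternatives covered pseudocounts of 1 and 0.01, filters, scalings, weights, batches and leaving out libraries; leaving out the 2 libraries high in 45S precursor and keeping only libraries over 1000000 reads were added after seeing the data.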

Additional observations from a re-analysis of the deposited data

Results flagged for a closer look

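Of 28 groups of 6 libraries tested for a value far from the others, 3 gave one, and chance gives about 1 in 20. Bdnf was at 11.1 FPKM in Kdm6b-cKO library 5 at P1, against 0.674 to 3.33 in the other 5 libraries of the group. The same library was highest for Ngfr, at 11.4 FPKM against 0 to 3.41, a value of 7 reads. It is the shallowest library (188000 reads) and the only Kdm6b-cKO library with many olfactory receptor genes above 0. Ngfr was at 0.439 FPKM in WT library 5 at P30, a value of 8 reads, against 0 to 0.119 in the other 5.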

How the results depend on the processing

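No paired analysis was possible because the columns are numbered 0 to 5 and the labels 1 to 6, so which column belongs to which label is not known. Depth limits P1, where 3 of 6 Kdm6b-cKO libraries and WT library 4 (803000 reads) held fewer than 1000000 reads. The cause of the differences between settings was not tested. Genes called at P1 numbered 0, and 11 without a filter, 1 without the trend, 406 with depth weights, 1659 in the batch with many olfactory receptor genes, 21 in the other, 1 with libraries over 1000000 reads, and 0 to 51 when leaving out 1 library. At P30 37 were called (30 lower, 7 higher), and 530 with limma weights (329 and 201), 62 with depth weights, 550 with a batch term (365 and 185), 759 in the 45S-high batch (443 and 316), and 2 to 43 leaving out 1 library; quantile normalization gave 45 (30 and 15), and the mean of at least 5 FPKM 26 (18 and 8). For the difference between ages 1 was called, and 10 with a pseudocount of 1, 9 without a filter, 3 at a mean of 5 FPKM, 39 after quantile normalization, 0 without the trend, 521 with limma weights, 238 with depth weights, and 0 to 92 leaving out 1 library. By rank 10213 genes passed, 5806 in Kdm6b-cKO alone and 9866 to 10590 leaving out 1 library; Ntf3 (limma adjusted p = 0.459) did not pass in Kdm6b-cKO alone.

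Quantile normalization moved the median of all genes at P1 from -0.25 to -0.022, and Ntrk2 to -0.82. Ntrk2 was lower under every alternative: -0.86 to -0.58 at P1 and -0.57 to -0.39 at P30, and -0.80 to -0.64 and -0.53 to -0.39 leaving out 1 library. Directions reversed at P1 in the batch with many olfactory receptor genes for Bdnf (0.82), Ntf3 (0.80), Ngfr (1.88), Vgf (0.62) and Sort1 (0.11). Ntrk3 at P1 reversed with quantile normalization (-0.14), depth weights (-0.020), without the 45S-high libraries (-0.080) and with libraries over 1000000 reads (-0.092), and spanned -0.14 to 0.24 leaving out 1 library. At P30 Bdnf reversed with limma weights (0.15) and in the 45S-low batch (0.0083), as did Ntf3 there (-1.31), and Vgf with a batch term (0.31) and in the 45S-high batch (0.61), spanning -0.23 to 0.14 leaving out 1 library. The difference between ages reversed for Bdnf with a batch term (-0.38) and for Vgf with quantile normalization and with limma weights (-0.11 each). The rank of Ntrk2 reversed with normal scores (-0.0091) and in WT alone (-1.32 points), spanning -0.33 to 0.43 points leaving out 1 library.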

Other observations

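Genes of the p75NTR pathway that were not described above gave no call between the genotypes. Of 11 adaptors and effectors tested, 7 were below 0 at P1 and 5 at P30, against 63.2% and 54.8% of all genes. Arhgdia, whose product binds p75NTR, was at 144 ± 31.0 FPKM in WT and 83.1 ± 57.1 in Kdm6b-cKO at P1 (SD, n = 6; log2 fold change -1.34, limma adjusted p = 0.318) and at 35.3 ± 4.37 and 28.6 ± 8.64 at P30 (-0.34, adjusted p = 0.472). Ripk2, a kinase that binds the p75NTR death domain, was at 8.32 ± 0.96 and 10.1 ± 1.90 FPKM at P30. With age 3 of the 11 rose in rank and 3 dropped: Irak1 rose by 15.1 points, and Rhoa dropped by 19.7 (limma adjusted p = 5.4e-08 and 1.33e-11).

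Among 14 genes of pro-neurotrophin processing and release, 10 were tested at P1 and 9 at P30, and none was called. Pcsk2, a convertase of secretory granules, was at 20.9 ± 2.32 FPKM in WT and 15.1 ± 3.57 in Kdm6b-cKO at P1 (log2 fold change -0.49, limma adjusted p = 0.332). Mmp9, a matrix protease that can cleave pro-BDNF, was at 4.04 ± 1.74 and 2.28 ± 2.15 FPKM. At P30 Cadps2, a factor of dense-core vesicle release, was at 9.45 ± 2.29 and 6.26 ± 1.56 FPKM (-0.58, adjusted p = 0.279), and Serpini1 at 7.93 ± 3.25 and 14.1 ± 5.34 (0.81, adjusted p = 0.245).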
